A study of Mus musculus with 12 samples.

Results

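The genes described here are 10 membrane transporters that move sodium, chloride, bicarbonate, sulfate and potassium across the colonic epithelium: Slc9a3, Slc9a2, Scnn1a, Atp12a, Slc4a4, Slc26a3, Slc26a2, Slc26a6, Cftr and Slc12a2. They were chosen by symbol, with earlier results of these data known, and all 10 were found among the 46517 gene IDs of the count tables. Their RNA was measured in intestinal epithelial cells from the colon of C57BL/6 mice aged 7 to 9 weeks. The mice were wild type (WT) or Nfkb2-/- (KO), and each genotype was either left untreated or given DSS (dextran sulfate sodium, which damages the lining of the colon) over 48 h, with 3 samples in each of the 4 groups. Nfkb2 encodes a precursor and subunit of the transcription factor NF-kB, and the labels give the allele only as Nfkb2-/-, without naming a cell type in which it was deleted. Cells were loosened from colon pieces with EDTA, and the labels put the usual purity of CD45.2-negative, EpCAM-positive cells at about 90%. The labels call the samples biological replicates, and p-values below measure the spread between them.

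The colon reclaims salt and water in part by a pair of exchangers in the apical membrane, a sodium/hydrogen exchanger and a chloride/bicarbonate exchanger working side by side, mostly in cells near the surface. A separate route in the distal colon takes up sodium through the epithelial sodium channel, ENaC, under the control of aldosterone. Secretion runs the other way: chloride enters the cell from the blood side through a sodium-potassium-chloride cotransporter and leaves through the CFTR channel. Loss of the apical exchangers is a known cause of diarrhoea.

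Total counts ranged from 5595909 to 8117740 per sample, and between 15738 and 17120 genes had at least 1 count. Levels are given in CPM, counts scaled to a common library size, with TMM as a correction for library composition. The targeted gene, Nfkb2, had 211 to 346 counts per WT library and 87 to 143 per KO library (log2 fold change KO against WT -1.36, SE 0.20, adjusted edgeR p 0.00123 untreated). The 8 epithelial markers listed summed to between 21456 and 30984 CPM in every sample. The 14 leukocyte markers summed to 110 to 141 CPM in untreated WT, 244 to 279 in DSS-treated WT, 225 to 247 in untreated KO and 316 to 369 in DSS-treated KO. The third untreated WT sample stood apart. It gave the largest count differences between replicates, and its 8 crypt base and cycling markers summed to 749 CPM against 475 and 437 CPM in the other samples of its group. Results for the transporters that rest on untreated WT are therefore also given without this sample where that changes a call. For the other genes named, such as partners and markers, whether a call holds without this sample was not tested. KO libraries were numbered after all WT libraries in the labels, so library order and genotype cannot be told apart.

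The promoter letters of Slc9a3 and Slc26a3 are shown because these genes had the largest decreases of the 10 under DSS in both genotypes. Each line is the 250 bases before the RefSeq start in GRCm38.p6, plus strand, at chr13:74121163-74121412 for Slc9a3 and at chr12:31437969-31438218 for Slc26a3. For Slc26a3 that start, at 31438219, lies 47348 bases inside the annotated locus, whose outer start belongs to another transcript, and 1 of the gene's 2 annotated coding transcripts starts at the same base. For Slc9a3 the RefSeq start lies shortly before the annotated one. RefSeq windows were matched for 5 of the 10 genes (Slc9a3, Slc26a3, Slc26a6, Cftr and Slc4a4). Capitals mark the GC box GGGCGG (or its complement) in Slc9a3 and, in Slc26a3, the nuclear receptor element CAAAGGTCA, the HNF1 core letters GTTAAT and the TATA box TATAAA.
Slc9a3: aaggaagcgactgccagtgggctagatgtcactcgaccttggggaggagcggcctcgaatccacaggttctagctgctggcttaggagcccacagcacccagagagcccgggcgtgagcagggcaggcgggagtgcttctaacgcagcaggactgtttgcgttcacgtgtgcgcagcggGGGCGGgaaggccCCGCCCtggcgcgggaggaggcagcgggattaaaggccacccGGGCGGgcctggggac
Slc26a3: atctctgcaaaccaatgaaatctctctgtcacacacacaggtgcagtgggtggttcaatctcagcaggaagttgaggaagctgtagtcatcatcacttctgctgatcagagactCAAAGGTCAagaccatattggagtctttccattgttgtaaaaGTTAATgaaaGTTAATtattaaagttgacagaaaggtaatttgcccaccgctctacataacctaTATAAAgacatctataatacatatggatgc

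Both strands were searched, and the motifs were chosen after the sequences had been seen. The Slc9a3 window is 67.6% G or C and holds 3 GC boxes, a motif found in 32.7% of the 32817 RefSeq windows of the same length. The Slc26a3 window is 38.8% G or C, against a median of 52.4% over all windows. Its TATA box starts 30 bases before the RefSeq start (12.4% of windows hold these letters), its nuclear receptor element starts at -136 (0.427% of windows), and its 2 HNF1 core motifs start at -94 and -84 (6.44% of windows). The 2 promoters thus share none of the marked motifs.

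Compared per kilobase of annotated exon, the 10 genes differed widely in level. In untreated WT, Slc26a3 was highest at 179 CPM per kilobase, followed by Atp12a at 97.2, Slc26a2 at 84.9, Slc9a2 at 60.0 and Slc9a3 at 23.0. Scnn1a (12.4), Cftr (12.4), Slc12a2 (8.24) and Slc4a4 (4.35) formed a lower tier, and Slc26a6 was near the limit of counting at 0.215. Neighbours in this order whose sample ranges overlapped were Atp12a with Slc26a2, Scnn1a with Cftr, and Cftr with Slc12a2. In the other groups Atp12a had the highest mean on this scale, although its range overlapped that of Slc26a2 in DSS-treated KO. That order depended on the length used. Per kilobase of the longest transcript, Atp12a was highest in no group. Slc26a3 then led in untreated KO (333 CPM per kilobase against 215 for Atp12a) and in DSS-treated WT (116 against 86.5), and Slc26a2 led in DSS-treated KO (125 against 81.1) and passed Atp12a in untreated WT (134 against 98.8). Slc9a3 went from the fifth place to the ninth under DSS in WT, where it lay at 1.91 CPM per kilobase of annotated exon, and from the sixth place to the eighth in KO (the ninth by longest transcript).

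**Figure D1:**
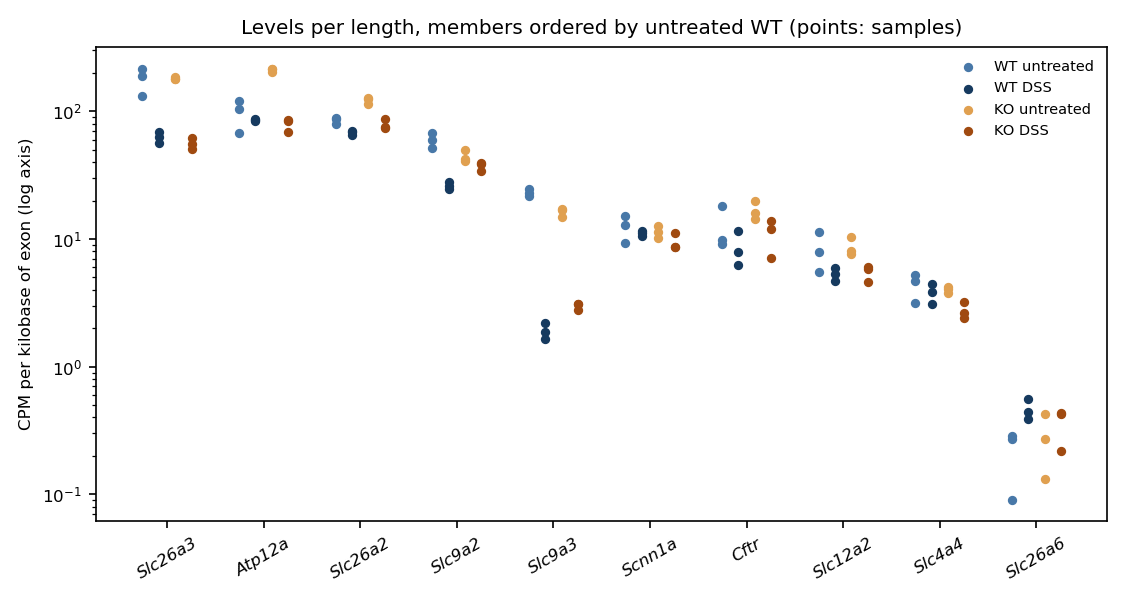
Level of each of the 10 genes in CPM per kilobase of annotated exon (log axis), with 1 point per sample and the genes ordered by their mean in untreated WT. The Slc9a3 points of both DSS groups lie below 4 CPM per kilobase, far under those of both untreated groups, and the Atp12a points of untreated KO lie above those of every other group.

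Genes were tested with edgeR's quasi-likelihood F test over all 12 samples and 12522 genes, and called when the Benjamini-Hochberg adjusted p was under 0.05. All 10 transporters passed the filter on low counts. Because they were chosen with earlier results of these data known, their shares here and in the next paragraph only describe the set. Under DSS in WT, 4 of the 10 fell and none rose, where 6.30% of all genes were called and 3.50% were called lower (5 of the 10 had an unadjusted p under 0.05, and DESeq2 called 4). The members' median log2 fold change was -0.43, and that of all genes tested was 0.006. Under DSS in KO, 4 fell and none rose, against 3.92% of all genes called and 2.04% called lower, with a median of -0.62 against 0.015 (6 had an unadjusted p under 0.05, and DESeq2 called 4). The 4 genes were Slc9a3, Slc26a3, Slc26a2 and Slc9a2 in WT, and Slc9a3, Slc26a3, Slc26a2 and Atp12a in KO. In untreated cells Atp12a and Slc26a2 were higher in KO, 2 of 10, where 3.48% of all genes were called and 1.72% were called higher. Under DSS Slc9a3 and Slc9a2 were higher in KO, 2 of 10, where 3.11% of all genes were called and 1.77% were called higher. The interaction, the KO change under DSS minus the WT change, was called for 3 of 10, against 1.70% of all genes. It was positive for Slc9a3 and Slc9a2 (1.17% of all genes were called positive) and negative for Atp12a (0.527%).

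A simpler reading, whether the 3 samples of one group all lie above or below the 3 of the other, gave larger counts for members and for genes at large. Under DSS in WT the groups did not overlap for 5 of 10 members, where this held for 20.6% of all genes. Under DSS in KO it held for 8 of 10 members, all lower, against 24.3% of all genes. Between genotypes it held for 4 of 10 members in untreated cells and for 3 of 10 under DSS, against 19.3% and 22.3% of all genes.

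**Figure D2:**
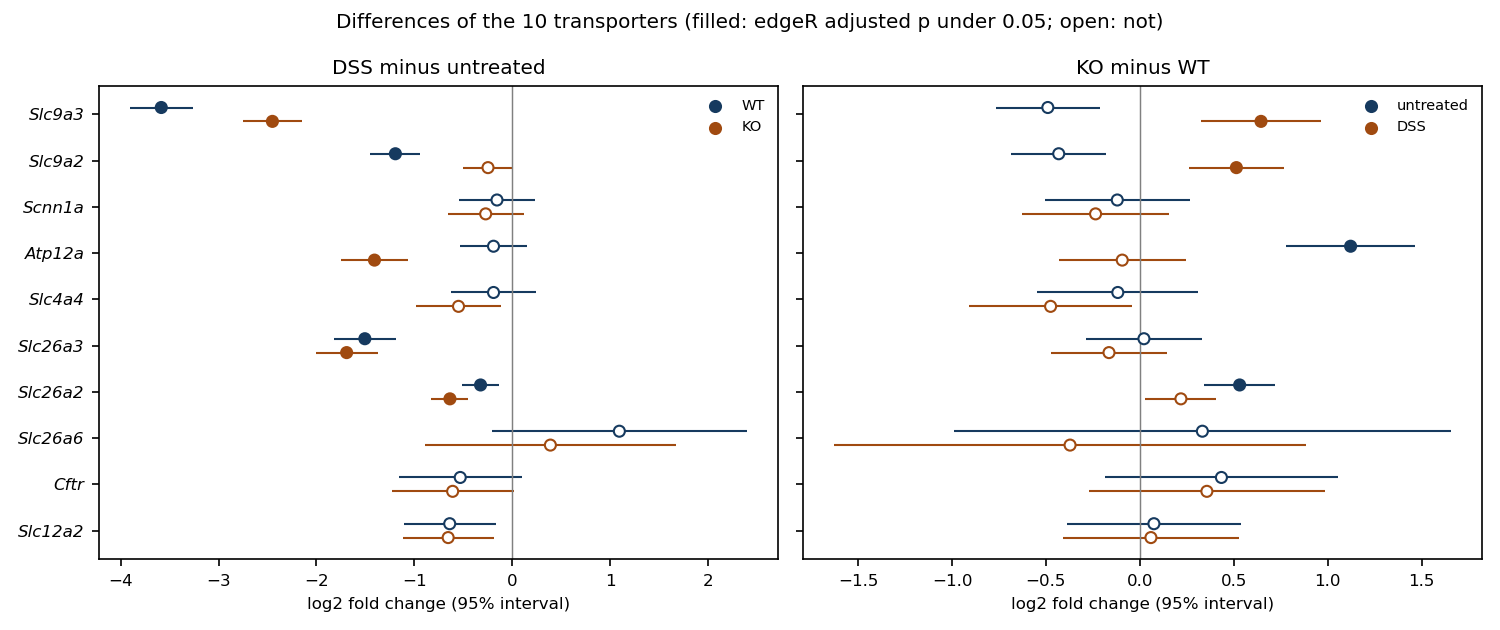
Log2 fold changes of the 10 genes with 95% intervals, DSS minus untreated on the left (WT and KO) and KO minus WT on the right (untreated and under DSS); filled points have an adjusted edgeR p under 0.05. Slc9a3 has the largest decreases under DSS, -3.59 in WT and -2.45 in KO, and Slc9a3 and Slc9a2 lie on opposite sides of 0 between genotypes in untreated cells and under DSS.

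Slc9a3 encodes NHE3, the apical sodium/hydrogen exchanger of absorptive cells. The gene (ENSMUSG00000036123.6) lies on the plus strand of chromosome 13 from 74121457 to 74169442 in GRCm38. Its level was 135, 125 and 119 CPM in the untreated WT samples and 10.3, 12 and 9.13 CPM in DSS-treated WT. In KO it was 92.8, 94.8 and 82.5 CPM untreated and 16.97, 17.05 and 15.4 CPM under DSS. No group overlapped another: the order from high to low was untreated WT, untreated KO, KO under DSS and WT under DSS.

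DSS lowered Slc9a3 by 12-fold in WT (log2 fold change -3.59, SE 0.15, adjusted edgeR p 3.66e-09) and by 5.47-fold in KO (-2.45, SE 0.14, adjusted edgeR p 6.83e-07). The difference between these changes was itself called (interaction 1.13, SE 0.20, adjusted edgeR p 0.00675). Under DSS the KO level was 1.56-fold that of WT (log2 fold change 0.64, SE 0.15, adjusted edgeR p 0.0299). This call was lost when any of 5 of the 6 samples was left out (adjusted edgeR p 0.057 to 0.136) and when only the 2 groups entered the fit (0.172). It was also lost when the mean log2 CPM of 10 leukocyte markers entered as a covariate (adjusted edgeR p 0.405). That mean ran from 1.52 to 2.37 in untreated WT and from 3.12 to 3.32 in DSS-treated WT. In KO it ran from 3.37 to 3.53 untreated and from 3.84 to 4.43 under DSS. The groups did not overlap, so fits with this covariate, here and below, cannot separate it from DSS or genotype. In untreated cells the KO level was 0.712 of that of WT, just outside the threshold (-0.49, SE 0.13, adjusted edgeR p 0.0514), and without the third untreated WT sample it passed (-0.53, adjusted edgeR p 0.0436). In RNA from a mixture of cells, fewer cells of a type and less RNA per cell cannot be told apart, for this gene and those that follow.

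Slc9a2 encodes NHE2, a second apical sodium/hydrogen exchanger. The gene (ENSMUSG00000026062.11) lies on chromosome 1 from 40680574 to 40769273, plus strand. The untreated WT samples had 363, 476 and 418 CPM, and the WT samples under DSS had 197, 180 and 173 CPM. The KO samples had 350, 288 and 295 CPM untreated and 276, 270 and 239 CPM under DSS. All DSS samples of WT lay below every sample of the other groups, while the highest KO sample under DSS (276) came close to the lowest untreated KO sample (288).

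The decrease of Slc9a2 in WT was 2.29-fold (log2 fold change -1.19, SE 0.12, adjusted edgeR p 1.50e-05). With the leukocyte covariate it was -0.998 and no longer called (adjusted edgeR p 0.058). In KO the change was -0.25 (SE 0.12, adjusted edgeR p 0.325), with a 95% interval from -0.50 to 0.004. The interaction was 0.95 (SE 0.17, adjusted edgeR p 0.00714). KO exceeded WT under DSS by 1.43-fold (0.51, SE 0.12, adjusted edgeR p 0.0303), a call lost on leaving out any of 5 of the 6 samples and with the leukocyte covariate (adjusted edgeR p 0.181). In untreated cells KO differed from WT by -0.43 (SE 0.12, adjusted edgeR p 0.0599), which DESeq2 called (adjusted p 0.017) and edgeR did not.

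Set against Slc9a2 per kilobase, Slc9a3 was lower under DSS in both genotypes. The ratio of Slc9a3 to Slc9a2 was 0.389 ± 0.074 (SD, n = 3) in untreated WT and 0.073 ± 0.010 in DSS-treated WT. It was 0.370 ± 0.043 in untreated KO and 0.080 ± 0.002 in DSS-treated KO. Within each treatment the ranges of the genotypes overlapped.

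**Figure D3:**
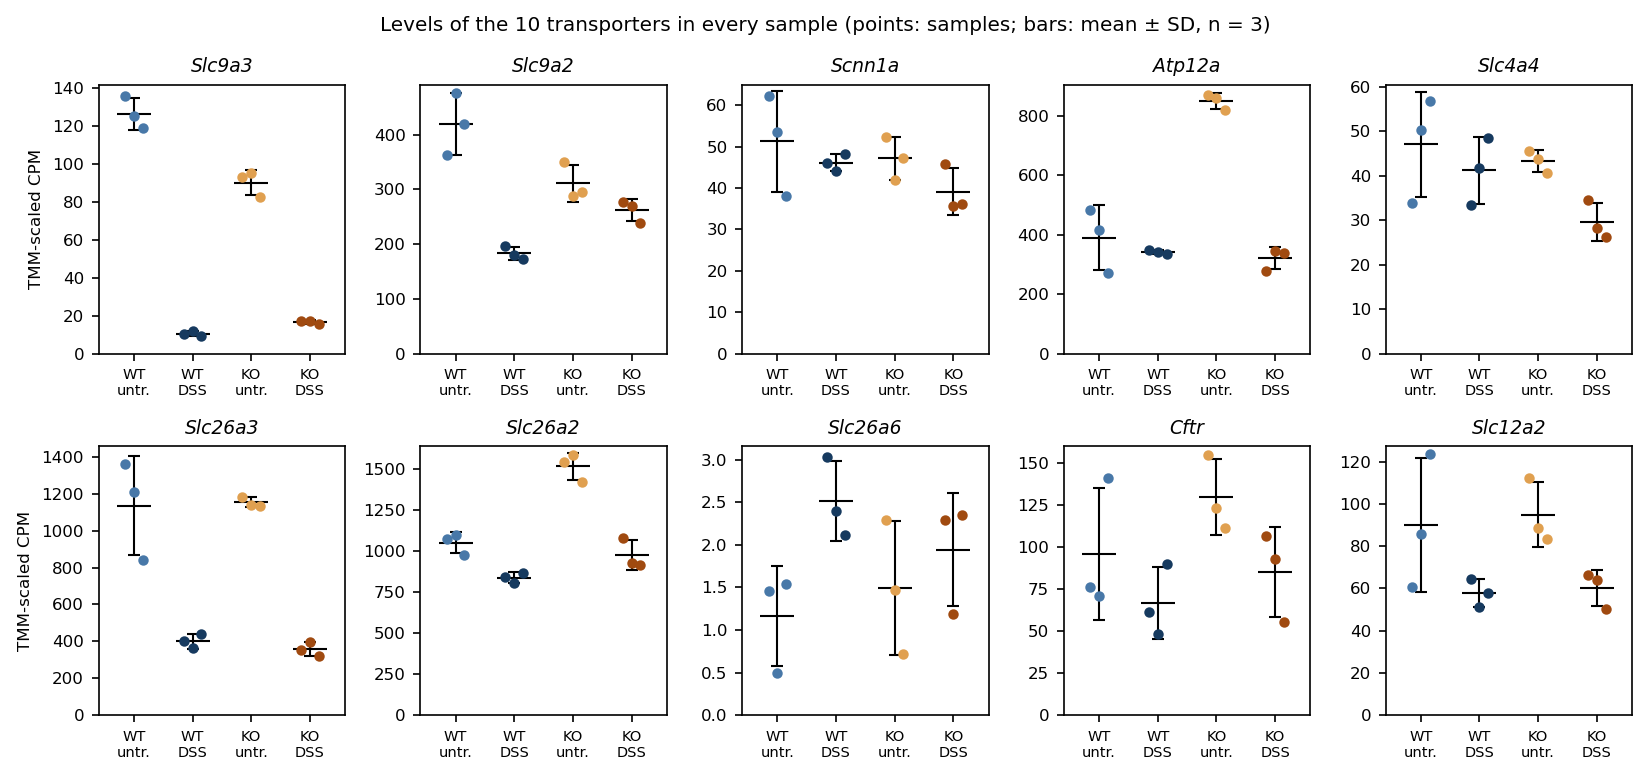
Levels of the 10 genes in TMM-scaled CPM for each of the 12 samples (points), with the mean ± SD of each group of 3 (bars), each panel on its own axis from 0. Slc9a3 and Slc26a3 are low in both DSS groups, Slc9a2 is lowest in DSS-treated WT, and Atp12a stands near 850 CPM in untreated KO against 271 to 484 CPM in untreated WT.

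Slc26a3 encodes DRA, the apical chloride/bicarbonate exchanger whose loss causes congenital chloride diarrhoea. Its locus is on chromosome 12, from 31390871 to 31473917, plus strand (ENSMUSG00000001225.11). Its level was 1361, 1212 and 839 CPM in untreated WT and 399, 362 and 440 CPM in DSS-treated WT. In KO it was 1186, 1140 and 1137 CPM untreated and 355, 395 and 322 CPM under DSS. Every DSS sample lay below every untreated sample, and the genotypes overlapped within each treatment.

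Slc26a3 fell 2.84-fold in WT (log2 fold change -1.51, SE 0.15, adjusted edgeR p 1.24e-05) and 3.23-fold in KO (-1.69, SE 0.15, adjusted edgeR p 2.09e-05). The interaction was -0.19 with a 95% interval from -0.62 to 0.25 (adjusted edgeR p 0.867). The gene showed no called difference between genotypes untreated (0.02, adjusted edgeR p 0.971) or under DSS (-0.16, adjusted edgeR p 0.684). Per kilobase, Slc26a3 exceeded Slc9a3 by 7.72-fold ± 1.40 (SD, n = 3) in untreated WT and 33.7-fold ± 7.82 in DSS-treated WT. The same ratio was 11.1 ± 0.765 in untreated KO and 18.7 ± 1.13 in DSS-treated KO. These sizes rest on the length chosen: per kilobase of the longest transcript the 4 ratios were 13.2, 57.7, 19.0 and 32.0.

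Slc26a2 encodes a sulfate transporter that exchanges sulfate for chloride and other anions. Its locus is on chromosome 18, from 61192919 to 61211612, minus strand (ENSMUSG00000034320.13). Untreated WT samples had 1074, 1100 and 978 CPM, and WT samples under DSS had 846, 805 and 867 CPM. Untreated KO samples had 1544, 1587 and 1424 CPM, and KO samples under DSS had 1083, 928 and 918 CPM. The untreated KO samples were the highest and the WT samples under DSS the lowest, with no overlap between them and the rest.

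In untreated cells Slc26a2 was 1.45-fold higher in KO than in WT (log2 fold change 0.53, SE 0.088, adjusted edgeR p 0.00347), a call lost with the leukocyte covariate (0.33, adjusted edgeR p 0.516). DSS lowered it 1.56-fold in KO (-0.64, SE 0.089, adjusted edgeR p 0.000838). The decrease in WT was smaller, 1.25-fold, and near the threshold (-0.32, SE 0.088, adjusted edgeR p 0.0417). That WT call was lost with the replicate number as a block (adjusted edgeR p 0.050), with only the 2 groups in the fit (0.136), with the leukocyte covariate (0.194), and on leaving out any single sample other than the third untreated WT one. The difference between the DSS changes was not called (interaction -0.31, adjusted edgeR p 0.360), nor was KO against WT under DSS (0.22, adjusted edgeR p 0.249).

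Slc26a6 encodes PAT1, an anion exchanger known mainly from the small intestine. It had 3 to 10 counts per sample in untreated WT, 13 to 20 in DSS-treated WT, 6 to 17 in untreated KO and 8 to 17 in DSS-treated KO. Its largest change, a log2 fold change of 1.09 under DSS in WT (SE 0.61, adjusted edgeR p 0.401), was not called and had a 95% interval from -0.21 to 2.40. The WT groups did not overlap, and the DSS samples were the higher ones.

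Atp12a encodes the catalytic subunit of the colonic hydrogen/potassium ATPase, an apical pump that takes up potassium in exchange for protons. The gene maps to chromosome 14, from 56365068 to 56388550, plus strand (ENSMUSG00000022229.2). The untreated KO samples had 869, 860 and 821 CPM. The untreated WT samples had 484, 416 and 271 CPM, and the WT samples under DSS had 347, 342 and 336 CPM. The KO samples under DSS had 278, 345 and 337 CPM, so untreated KO alone was high and the other groups overlapped each other.

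Untreated KO exceeded untreated WT by 2.18-fold (log2 fold change 1.12, SE 0.16, adjusted edgeR p 0.00106), and by a log2 fold change of 0.92 without the third untreated WT sample. With the leukocyte covariate the difference was 0.31 and no longer called (adjusted edgeR p 0.707). DSS lowered Atp12a 2.65-fold in KO (-1.41, SE 0.16, adjusted edgeR p 0.000181). The change in WT was -0.19 (SE 0.16, adjusted edgeR p 0.632), and -0.40 without the third untreated WT sample, where it was called (adjusted edgeR p 0.0268). The interaction was -1.22 (SE 0.22, adjusted edgeR p 0.00978), and under DSS the genotypes were not called different (-0.09, 95% interval from -0.43 to 0.25). The exons of Atp12a overlap the gene Gm10873 on the opposite strand over 13.9% of their length. Gm10873 is not among the gene IDs that were counted. SMART-seq2 libraries do not mark the strand, so any of its reads there cannot be told from those of Atp12a.

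Scnn1a encodes the alpha subunit of ENaC, through which the distal colon takes up sodium. The gene maps to chromosome 6, from 125320659 to 125344943, plus strand. The samples had 62.2, 53.5 and 38.2 CPM in untreated WT, 46.0, 44.0 and 48.1 in DSS-treated WT, 52.4, 42.0 and 47.3 in untreated KO and 45.8, 35.6 and 36.0 in DSS-treated KO. All groups overlapped. Its log2 fold changes ranged from -0.27 (DSS in KO) to -0.12 (KO against WT, untreated), with none called and the smallest adjusted edgeR p at 0.531.

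The other ENaC subunits were far scarcer and varied more. Scnn1b, the beta subunit, had 14 to 23 counts per sample in untreated WT, 15 to 48 in DSS-treated WT, 50 to 94 in untreated KO and 9 to 25 in DSS-treated KO. Its decrease under DSS in KO was called (log2 fold change -1.83, SE 0.48, adjusted edgeR p 0.0467). Its excess in untreated KO over WT (1.58, adjusted edgeR p 0.087) and its interaction (-2.66, adjusted edgeR p 0.0701) were not called. Scnn1g, the gamma subunit, had 41 to 117 counts in untreated KO samples and 0 to 18 in every other sample. None of its differences was called (DSS in KO, adjusted edgeR p 0.0522). Untreated KO was thus the group with the highest mean of Atp12a, Scnn1b and Scnn1g alike. Other genes of sodium uptake went the other way, with a higher mean in untreated WT than in untreated KO. These were Scnn1a (51.3 against 47.2 CPM), Nr3c2 (190 against 148) and Sgk1 (190 against 151), none called between untreated genotypes.

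Markers of distal colon were measured beside these genes. The 4 genes listed, Hoxa13, Hoxb13, Hoxd12 and Hoxd13, summed to 256 to 277 CPM in untreated WT, 400 to 421 in DSS-treated WT, 382 to 432 in untreated KO and 371 to 436 in DSS-treated KO. Most of this sum was Hoxb13, with 213 to 253 CPM in untreated WT and 347 to 366 CPM in DSS-treated WT. Hoxb13 was higher in untreated KO than in untreated WT (log2 fold change 0.61, adjusted edgeR p 0.00349) and under DSS in WT (0.65, adjusted edgeR p 0.000958), with an interaction of -0.64 (adjusted edgeR p 0.0337). It was the only 1 of the 4 genes called in each of these comparisons. Leukocyte marker RNA was also higher in untreated KO than in untreated WT, called for 6 of the 10 markers tested, where 1.72% of all genes were called higher. The part of distal position in the genotype differences was not tested.

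**Figure D4:**
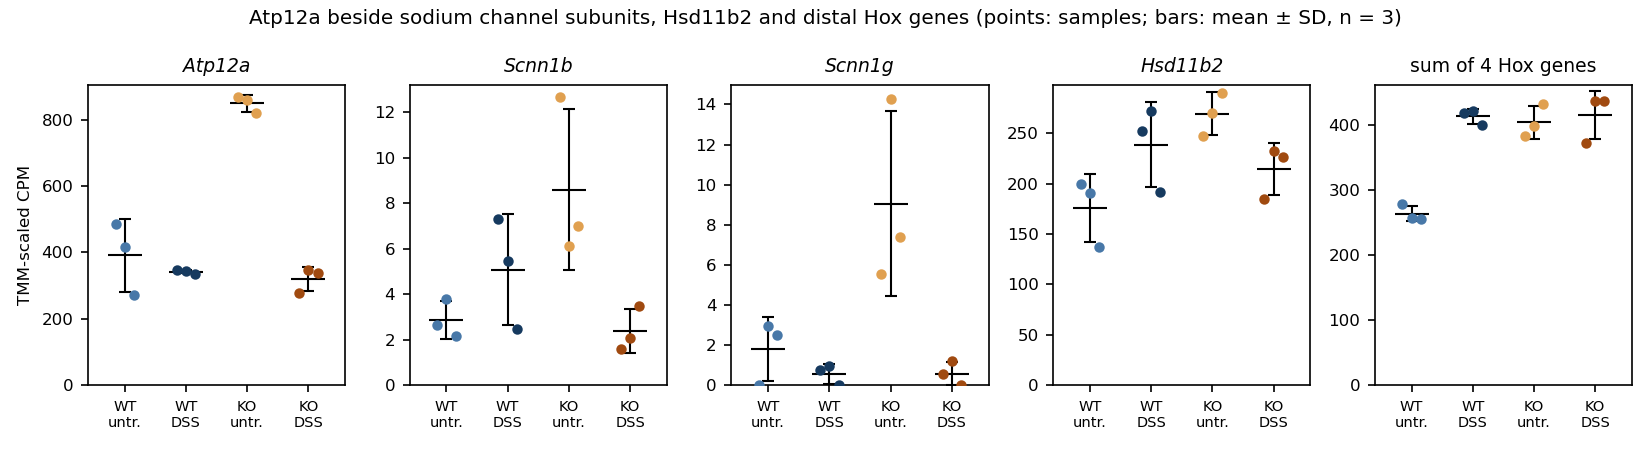
Levels in TMM-scaled CPM of Atp12a, the ENaC subunits Scnn1b and Scnn1g, the steroid enzyme Hsd11b2 and the sum of 4 distal Hox genes for each sample (points), with the mean ± SD of each group of 3 (bars). Atp12a, Scnn1b and Scnn1g have their highest mean in untreated KO, while the Hox sum is near 400 CPM in all groups but untreated WT.

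Cftr encodes the apical chloride and bicarbonate channel mutated in cystic fibrosis. It lies on chromosome 6 from 18170687 to 18322768, plus strand. Untreated WT samples had 76.1, 70.9 and 141 CPM, and WT samples under DSS had 61.2, 48.3 and 90.2 CPM. Untreated KO samples had 155, 124 and 111 CPM, and KO samples under DSS had 107, 93.1 and 55.6 CPM. The WT groups overlapped and the KO groups did not, with DSS lower. Neither decrease was called (log2 fold change -0.53, adjusted edgeR p 0.395 in WT, and -0.61, adjusted edgeR p 0.329 in KO), and their 95% intervals ran from -1.16 to 0.098 and from -1.23 to 0.014.

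Slc12a2 encodes NKCC1, the basolateral cotransporter that loads the cell with chloride. It lies on chromosome 18 from 57878678 to 57946821, plus strand. Untreated samples had 60.5, 85.8 and 124 CPM in WT and 112, 88.5 and 83.5 CPM in KO. Under DSS the samples had 64.5, 50.9 and 57.9 CPM in WT and 66.5, 63.8 and 50.4 CPM in KO. The changes were of like size in both genotypes, -0.64 in WT (SE 0.22, adjusted edgeR p 0.117) and -0.66 in KO (SE 0.22, adjusted edgeR p 0.128), with 95% intervals that did not include 0 but no call after adjustment. Without the filter on low counts, Cftr and Slc12a2 were called lower under DSS in both genotypes (adjusted edgeR p 0.025 and 0.007 in WT, 0.005 and 0.005 in KO). With the leukocyte covariate the WT values turned to 0.89 for Cftr (adjusted edgeR p 0.421) and 0.52 for Slc12a2 (0.532), and the KO value of Cftr to 0.18 (0.841).

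In the third untreated WT sample Cftr, Slc12a2, Slc4a4 and Slc26a6 were the highest of their group. Slc26a3, Atp12a, Scnn1a, Slc9a3 and Slc26a2 were the lowest of their group there. Without this sample the WT change under DSS was -0.15 for Cftr (adjusted edgeR p 0.847) and -0.34 for Slc12a2 (adjusted edgeR p 0.378). The ratio of Cftr to Slc12a2 per kilobase was 1.51 ± 0.314 (SD, n = 3) in untreated WT, 1.62 ± 0.495 in DSS-treated WT, 1.92 ± 0.047 in untreated KO and 1.96 ± 0.367 in DSS-treated KO. These ranges overlapped between DSS and untreated samples in each genotype.

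Slc4a4 encodes NBCe1, which brings sodium and bicarbonate into the cell across the basolateral membrane. It lies on chromosome 5 from 88886818 to 89239653, plus strand. The samples had 34.0, 50.4 and 56.9 CPM in untreated WT, 33.4, 41.7 and 48.4 in DSS-treated WT, 45.6, 43.8 and 40.6 in untreated KO and 34.5, 28.3 and 26.2 in DSS-treated KO. The KO samples under DSS were below all untreated KO samples, and the WT groups overlapped. The decrease in KO was -0.55 (SE 0.20, adjusted edgeR p 0.178) and that in WT -0.19 (adjusted edgeR p 0.730), neither called.

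The genes that regulate or accompany sodium uptake were listed as 18 partners, of which 17 were tested. Under DSS 3 fell and none rose in WT, and 3 fell and none rose in KO, where 3.50% and 2.04% of all genes were called lower. Sgk1, the kinase that mediates the aldosterone response and raises ENaC and NHE3 activity, had 190 ± 5.71 CPM (SD, n = 3) in untreated WT and 38.5 ± 1.74 in DSS-treated WT. Its KO levels were 151 ± 17.4 CPM untreated and 53.8 ± 4.74 under DSS. The decrease was called in WT (log2 fold change -2.31, adjusted edgeR p 2.30e-08) and in KO (-1.49, adjusted edgeR p 1.70e-05). Its interaction was also called (0.82, adjusted edgeR p 0.0156), as was its excess in DSS-treated KO (0.48, adjusted edgeR p 0.0419).

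Slc9a3r1, the scaffold NHERF1 that tethers NHE3 and CFTR, fell by 0.79 on the log2 scale in WT (adjusted edgeR p 0.00248) and by 0.81 in KO (adjusted edgeR p 0.00429). Ezr, the ezrin gene that links this complex to actin, fell by 0.49 in WT (adjusted edgeR p 0.0257), and its change in KO was -0.41 (adjusted edgeR p 0.084). The third decrease in KO was that of Scnn1b. Between untreated genotypes 1 of the 17 was called, where 3.48% of all genes were. Hsd11b2, which protects the mineralocorticoid receptor from glucocorticoids, was higher in KO (0.62, adjusted edgeR p 0.0458). In the list of sodium partners the median change was -0.11 in WT and -0.19 in DSS-treated KO.

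Of 19 anion and potassium channel partners 15 were tested, and they moved both ways. Under DSS 2 rose and 4 fell in WT, and 2 rose and 1 fell in KO, where 6.30% and 3.92% of all genes were called. Best2, a bicarbonate channel of goblet cells, had 16.3 ± 3.05 CPM (SD, n = 3) in untreated WT and 44.5 ± 4.97 in DSS-treated WT. It stood at 68.2 ± 8.19 CPM in untreated KO and 71.3 ± 6.73 in DSS-treated KO. It was called higher under DSS in WT (log2 fold change 1.45, adjusted edgeR p 9.04e-05) and in untreated KO against WT (2.06, adjusted edgeR p 8.34e-06), with an interaction of -1.38 (adjusted edgeR p 0.00598).

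Clca1, a secreted goblet cell protein that regulates chloride conductance, went in opposite directions. It averaged 15508 ± 4702 CPM (SD, n = 3) in untreated WT and 7474 ± 86.5 in DSS-treated WT, but 6372 ± 347 in untreated KO and 15534 ± 877 in DSS-treated KO. Its DSS changes were -1.05 in WT (adjusted edgeR p 0.000616) and 1.29 in KO (adjusted edgeR p 0.000291), with an interaction of 2.34 (adjusted edgeR p 5.55e-05). The 7 goblet markers summed to 8449 to 10596 CPM in untreated WT, 7637 to 10153 in DSS-treated WT, 7829 to 8568 in untreated KO and 12247 to 14827 in DSS-treated KO, and their part in the Clca1 change was not tested.

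Clca4a and Clca4b, neighbours of Clca1, parted from each other under DSS. In WT Clca4a fell from 83.8 ± 27.3 to 9.31 ± 0.890 CPM (SD, n = 3, log2 fold change -3.17, adjusted edgeR p 2.16e-06). Clca4b rose there from 97.3 ± 31.5 to 637 ± 32.8 CPM (2.71, adjusted edgeR p 4.10e-07). In KO Clca4a also went down, from 54.0 ± 4.17 to 24.6 ± 5.40 CPM, and Clca4b up, from 83.7 ± 3.04 to 137 ± 5.51 CPM. They share 41.0% and 24.8% of their 50-base words with near copies, so their counts are uncertain. Kcnq1, a potassium channel that supports chloride secretion, fell by 0.81 on the log2 scale in WT (adjusted edgeR p 0.00475). In untreated cells Kcnn4, another potassium channel of that pathway, was higher in KO (0.63, adjusted edgeR p 0.0438) and Slc4a2, a basolateral chloride/bicarbonate exchanger, was lower in KO (-0.63, adjusted edgeR p 0.0146).

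Among 8 regulators of the cyclic nucleotides that switch absorption to secretion, 7 were tested. Guca2a, the hormone guanylin, fell from 263 ± 91.0 to 49.6 ± 11.4 CPM (SD, n = 3) under DSS in WT and from 231 ± 48.6 to 98.7 ± 16.2 CPM in KO. Both decreases were called (log2 fold change -2.41, adjusted edgeR p 3.11e-05 in WT and -1.23, adjusted edgeR p 0.0118 in KO), and under DSS its level was higher in KO (0.99, adjusted edgeR p 0.0485). Ptger4, a prostaglandin E2 receptor, fell by 1.11 on the log2 scale in WT (adjusted edgeR p 0.00143). No regulator was called between untreated genotypes (2 had an unadjusted p under 0.05, and DESeq2 called 0).

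Markers of surface colonocytes were measured beside the apical exchangers. Of 8 such markers 7 fell under DSS in WT and 6 in KO, where 3.50% and 2.04% of all genes were called lower. The interaction was called positive for 4 of the 8 and negative for none, where 1.17% of all genes were called positive. Between untreated genotypes 4 were lower in KO (Car1, Alpi, Ceacam1 and Muc3) and 1 was higher (Car4), where Slc26a3 was not called different. Under DSS 2 were higher in KO (Car4 and Aqp8). Of all genes 3.48% were called between untreated genotypes and 3.11% under DSS. The markers named here were picked after their values were seen. The 8 surface markers summed to 19001 to 20480 CPM in untreated WT, 7698 to 7986 in DSS-treated WT, 11518 to 12253 in untreated KO and 7496 to 8153 in DSS-treated KO. Of 8 crypt base and cycling markers 2 fell in WT and 5 in KO, while none of the 8 epithelial markers was called under DSS in either genotype (2 in each had an unadjusted p under 0.05, and DESeq2 called 0). The part of these markers in the changes of Slc9a3, Slc9a2 and Slc26a3 was not tested.

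For the 4 members with the highest mean level, the genes with the most similar pattern were found by Pearson correlation of log2 CPM over the 12 samples among 8860 genes. Both genes of a pair were measured in the same libraries, and the samples fall into 4 groups, so r is a description. Nearest to Slc26a3 were Krt20, a keratin of surface cells, at r = 0.971, Ces2c at 0.964 and Abcg2 at 0.961. Nearest to Slc9a2 were Mier3 (0.953), Neurl1b (0.948) and Prnp (0.936). Nearest to Slc26a2 was Ywhaq (0.917), followed by Spc24 and Oxct1. Nearest to Atp12a were Eno3 (0.915), G3bp1 (0.900) and Slc34a2 (0.889), the last a sodium/phosphate cotransporter.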

How the data were processed

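The deposited values are raw read counts per gene, one table per sample, with whole-number values that the authors did not normalize as far as the values show. The submitters' processing notes name STAR 2.5.2b, featureCounts 1.5.0 and the builds GRCm38 and mm10, with no role or order. The annotation release is not given in the sources used here. Per the labels' protocols, SMART-seq2 libraries were made from 2 ng of total RNA. Of 46517 gene IDs, 46005 matched GENCODE M21 (GRCm38) without the version, which gave symbols, exon lengths and coordinates. No pair of replicates agreed within sampling noise (chi-square per degree of freedom 6.51 to 27.0).

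Counts were fitted with edgeR 4.0.16 in R 4.3.3 (filterByExpr, TMM, 1 coefficient per group, quasi-likelihood F test, two-sided, Benjamini-Hochberg over 12522 genes, 99.8% of counts). SE is the absolute log2 fold change divided by the square root of F. Fold changes set in counts simulated from edgeR's own dispersions were recovered, which checks the code but not how well the model suits these data. Log2 CPM used a prior count of 2. DESeq2 1.42.0, median-ratio size factors, no low-count filter, only the groups compared, a leukocyte covariate, a replicate block and leave-one-out fits were alternatives. With the titles' numbers taken as pairs, deviations of untreated and DSS samples from their group means had r of 0.204, 0.106 and 0.127 in KO. In WT these values were 0.014, 0.120 and 0.128. In both genotypes all 3 untreated samples correlated best with the DSS sample of their own number. Such samples have consecutive library numbers, and the labels do not say what the numbers share. The main fit ignores this pairing, and only the replicate block uses it. Promoter windows came from RefSeq.

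Named genes are the 10 members, genes called in the 3 partner lists (up to 5 by adjusted p in a comparison), Scnn1b and Scnn1g, the leading markers, and for the 4 highest members the 3 genes most correlated. Members and lists were chosen with earlier results of these data known.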

Additional observations from a re-analysis of the deposited data

Results flagged for a closer look

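The DSS change of 3 transporters differed between genotypes by the interaction term of the edgeR fit. A positive interaction was not particular to transporters, being called for 4 of the 8 surface colonocyte markers too. For Slc9a3 the interaction was 1.13 on the log2 scale (adjusted edgeR p 0.00675), since the gene fell 12-fold in WT and 5.47-fold in KO. For Slc9a2 it was 0.95 (adjusted edgeR p 0.00714), with a decrease of 2.29-fold called in WT and a change of -0.25 in KO that was not called. For Atp12a it was -1.22 (adjusted edgeR p 0.00978), with a high level in untreated KO only. Over all alternatives, leaving out each sample included, these 3 remained called, with values from 1.04 to 1.24 for Slc9a3, from 0.84 to 1.04 for Slc9a2 and from -1.40 to -0.95 for Atp12a, and adjusted p in edgeR or DESeq2 of at most 0.0332.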

How the results depend on the processing

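The 3 called interactions, and the decreases of Slc9a3, Slc26a3, Slc26a2 and Atp12a under DSS in KO, kept their direction and call under every alternative run. With the replicate block, 3, 4, 2, 2 and 3 members and 695, 409, 345, 290 and 186 genes were called for DSS in WT, DSS in KO, KO against WT untreated and under DSS, and the interaction; the Slc26a2 decrease in WT was the member call it changed. Without the filter on low counts, 776 (DSS in KO), 703 and 642 (KO against WT, untreated and under DSS) and 356 (interaction) genes were called. In that fit 1 member was called for KO against WT under DSS, so either the Slc9a3 or the Slc9a2 call was lost. With the leukocyte covariate, 282, 205, 63 and 77 genes were called in the first 4 comparisons, and 2 members for DSS in WT (Slc9a2 at an adjusted edgeR p of 0.058) and 0 and 0 between genotypes (4 and 5 at an unadjusted p under 0.05). With only the 2 groups compared, 467 genes were called for DSS in WT, 195 for KO against WT untreated, and 1 member for KO against WT under DSS. DESeq2 called 782, 740, 634 and 355 genes for DSS in KO, KO against WT untreated and under DSS, and the interaction, and 4 members for KO against WT untreated. Leaving out 1 sample at a time gave 483 to 958 genes for DSS in WT, 235 to 302 for DSS in KO, 212 to 725 for KO against WT untreated (725 without the third untreated WT sample), 160 to 231 under DSS and 152 to 350 for the interaction (350 without that sample). It gave 0 to 1 members for KO against WT under DSS.

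Signs turned for some differences that the filtered edgeR fit over all samples had not called. With the leukocyte covariate these were Cftr (0.89), Slc12a2 (0.52) and Slc4a4 (0.45) for DSS in WT, Cftr (0.18) for DSS in KO, Slc26a3 (-0.43), Slc26a6 (-0.27) and Slc4a4 (0.66) between untreated genotypes, Slc4a4 (0.027) between genotypes under DSS and Scnn1a (0.13) for the interaction. The covariate followed the 4 groups, so these fits cannot separate it from DSS or genotype, and the cause was not tested. Leaving out 1 sample at a time gave -0.33 to 0.000136 for Scnn1a for DSS in WT. Between untreated genotypes it gave -0.29 to 0.038 for Scnn1a, -0.15 to 0.38 for Slc12a2, -0.10 to 0.67 for Slc26a6, -0.16 to 0.17 for Slc26a3 and -0.31 to 0.043 for Slc4a4. It gave -0.026 to 0.17 for Slc12a2 between genotypes under DSS and, for the interaction, -0.47 to 0.20 for Cftr, -0.32 to 0.20 for Slc12a2 and -0.28 to 0.056 for Scnn1a.

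Few counts limit Slc26a6, Scnn1b and Scnn1g, and 3 samples a group limit every test. Counts are PCR copies, not molecules.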

Other observations

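After the group mean was taken from each of the 12 samples, the log2 CPM of Cftr and Slc12a2 had a Pearson r of 0.75, and 0.58 without the third untreated WT sample, a choice made after its values were seen. For Slc26a3 and Atp12a r was 0.81 with that sample and 0.24 without it. Further pairs had values as large or moved as much. With and without that sample, r was -0.17 and 0.81 for Slc26a3 and Cftr. It was 0.66 and 0.93 for Slc9a2 and Slc12a2, and -0.77 and -0.42 for Slc12a2 and Atp12a. Both genes of a pair come from the same libraries, so these values are descriptions.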
